A study of Mus musculus with 36 samples.

Results

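The genes described here are the nuclear-encoded subunits of the mitochondrial respiratory chain and ATP synthase in mouse astrocyte lines. The rule that picks them uses annotation and no measured value: protein-coding genes whose symbols carry the usual subunit stems, namely Nduf followed by a, b, c, s or v and a digit, Sdha to Sdhd, Uqcr, Cox4 to Cox8, and Atp5. The rule found 84 members among the 46078 genes of the count table, with 37 in complex I, 4 in complex II, 8 in complex III, 18 in complex IV and 17 in complex V. The symbols set the complex. Ndufa4 was therefore counted with complex I although its protein is now assigned to complex IV, Atp5s was counted with complex V although it is not a core subunit, and Ndufab1 fell outside the rule.

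RNA had been profiled by BRB-seq, a pooled method that reads the 3′ ends of polyadenylated transcripts, in Nf1-/- astrocytes transformed with a dominant-negative p53 (DNp53) and grown in DMEM/F12 with 10% serum. There were 5 lots, separate litters by the design text, and each gave 1 female and 1 male line, for 10 lines and 36 libraries (3 per line in lots 6 and 12, 4 per line in lots 7, 8 and 11). Genotype and transformation were shared by all lines, and astrocytes without the Nf1 deletion or DNp53 were not analysed here. Whether replicate libraries came from separate cultures is not given in the labels. Within-lot p-values measure only the spread between these libraries, which may be technical, and a sex difference within a lot cannot be told apart from a difference between 2 single lines.

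The respiratory chain moves electrons from NADH, through complex I, and from succinate, through complex II, to ubiquinone, on to cytochrome c through complex III, and to oxygen through complex IV. Complexes I, III and IV pump protons across the inner mitochondrial membrane, and complex V, the ATP synthase, uses the gradient to make ATP. All complexes except complex II join nuclear-encoded subunits with core subunits made from mitochondrial DNA, so both genomes must supply parts of the same machines. In astrocytes oxidative phosphorylation works beside a high rate of glycolysis.

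The promoters of this gene class are known for sites of the factors NRF1 and GABP (an ETS-family factor also called NRF2), and several complex IV subunits come as a widely used form and a form of muscle or testis. RefSeq promoter windows (GRCm38.p6, 250 bases before to 50 after the start) matched 68 of the 84 members. The NRF1 motif (GCGCA and GCGC with 1 free base between them), searched on both strands like all motifs here, occurred in 25.4% of the 63 windows of members at 40 CPM (counts scaled to a common library size) or more and in 6.66% of the 17491 protein-coding windows. The ETS motif CCGGAAG occurred in 23.8% and 11.9%, the YY1 motif AAGATGGC in 14.3% and 3.21%, and TATAAA in 7.94% and 13.3%. Over all 68 matched members the shares were 23.5% (NRF1), 22.1% (ETS), 13.2% (YY1) and 10.3% (TATAAA). The protein-coding windows were matched neither for level nor for CG dinucleotides, whose median was 19 in member windows and 13 in protein-coding windows. None of the 5 matched members under 10 CPM held the first 3 motifs, but 5 windows are too few to tell this from the shares above. The lines below show up to 150 bases upstream of the start in both RefSeq and GENCODE, 5′ to 3′ in the direction of the gene, with motif matches in capitals. The first 3 are the most abundant members with an NRF1 match in that stretch, and Uqcr11 is the most abundant with an ETS match in it. In the full windows Cox6b1, Cox8a and Cox6a1, all of higher level than Uqcr11, held ETS matches too. The last 4 are the abundant and the low form of 2 complex IV subunits, which the results below turn on.
Cox6a1, chr5:115348982-115349131, minus strand: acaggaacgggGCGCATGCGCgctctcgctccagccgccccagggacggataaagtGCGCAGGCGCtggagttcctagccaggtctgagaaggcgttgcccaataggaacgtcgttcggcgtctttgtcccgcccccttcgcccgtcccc
Atp5h, chr11:115419963-115420112, minus strand: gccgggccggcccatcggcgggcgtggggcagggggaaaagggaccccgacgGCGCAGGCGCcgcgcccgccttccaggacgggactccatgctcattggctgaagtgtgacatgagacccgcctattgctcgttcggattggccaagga
Ndufa11, chr17:56717612-56717761, plus strand: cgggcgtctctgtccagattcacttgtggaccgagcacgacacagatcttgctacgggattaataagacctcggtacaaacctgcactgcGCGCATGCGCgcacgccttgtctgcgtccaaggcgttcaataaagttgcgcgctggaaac
Uqcr11, chr10:80406831-80406980, minus strand: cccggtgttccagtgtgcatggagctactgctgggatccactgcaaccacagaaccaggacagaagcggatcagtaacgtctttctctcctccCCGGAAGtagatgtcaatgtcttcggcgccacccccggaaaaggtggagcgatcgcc
Cox6b1, chr7:30626152-30626301, minus strand: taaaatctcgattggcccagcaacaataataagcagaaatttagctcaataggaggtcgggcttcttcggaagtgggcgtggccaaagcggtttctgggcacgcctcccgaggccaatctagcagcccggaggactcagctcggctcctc
Cox6b2, chr7:4753095-4753244, minus strand: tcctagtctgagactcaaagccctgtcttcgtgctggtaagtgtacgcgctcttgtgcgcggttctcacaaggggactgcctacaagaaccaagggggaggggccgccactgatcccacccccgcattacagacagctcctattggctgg
Cox7a2, chr9:79759879-79760028, minus strand: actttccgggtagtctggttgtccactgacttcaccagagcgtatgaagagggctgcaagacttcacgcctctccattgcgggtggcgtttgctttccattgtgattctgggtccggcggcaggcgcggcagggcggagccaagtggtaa
Cox7a1, chr7:30183994-30184143, plus strand: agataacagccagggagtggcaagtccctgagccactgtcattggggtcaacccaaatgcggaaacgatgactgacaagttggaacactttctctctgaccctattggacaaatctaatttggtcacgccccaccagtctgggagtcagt
In these stretches CG dinucleotides numbered 10 for Cox7a2 against 3 for Cox7a1, and 9 for Cox6b1 against 7 for Cox6b2. A match is a run of letters and not a measured binding site.

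Libraries held 4358098 to 7562901 counts, and 12654 to 14177 genes were detected in each. The floor of 3 counts corresponded to 0.397 to 0.688 CPM of the library total. No 2 libraries of the same line were copies: chi-square divided by its degrees of freedom ran from 5.47 to 22.3 over the 48 pairs within lines, and 0 pairs were identical. Pairs from different lines were not part of this check. Of 12 astrocyte markers 6 exceeded 1 CPM, led by Gja1 at 144 CPM, while the defining markers Gfap, Aqp4 and S100b averaged 0.135, 0.258 and 0.239 CPM. Of the pericyte and smooth muscle markers 4 of 8 exceeded 1 CPM, with Acta2, a contractile gene, at 6056 CPM, and of the fibroblast markers 3 of 6, with Col1a2 at 212 and Col1a1 at 103 CPM and Lum at 0. Of the neuron markers 3 of 6 exceeded 1 CPM (Tubb3 at 15.6 and Map2 at 8.07 CPM on average, and Stmn2 at 0.905 to 41.1 CPM between lines), with Rbfox3 and Snap25 at 0. Of the microglia and macrophage markers 2 of 10 did (Cd68 3.25 and Tmem119 2.20 CPM), with Itgam, C1qa and C1qb at 0, and of the oligodendrocyte markers 1 of 8 (Cspg4 2.02 CPM), with Mog, Olig2 and Sox10 at 0. No endothelial marker did (0 of 5).

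Together the 84 members took 4.04 ± 0.251% of all counts (SD over the 10 lines). Complex I took 1.43%, complex V 1.18%, complex IV 0.946%, complex III 0.420% and complex II 0.0674%. The share of all members was lowest in the lot 8 female line, at 3.72 ± 0.0753% (SD, n = 4), and highest in the lot 6 female line, at 4.59 ± 0.0543% (SD, n = 3). In the other 8 lines it lay between 3.80 and 4.26%. Female and male lines averaged 4.10 ± 0.330 and 3.98 ± 0.153% (SD, n = 5 lines each), ranges that overlap. The 13 protein genes of mitochondrial DNA, of which 8 exceeded 1 CPM, took 0.569% on average, from 0.488 to 0.626% between lines. This is a share of counts and need not follow the level of these transcripts. Their share was lowest in replicate 4 of all 6 lines of lots 7, 8 and 11, at 0.251 to 0.349%, and counts of members that passed in those lots are given with and without these libraries.

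**Figure D1:**
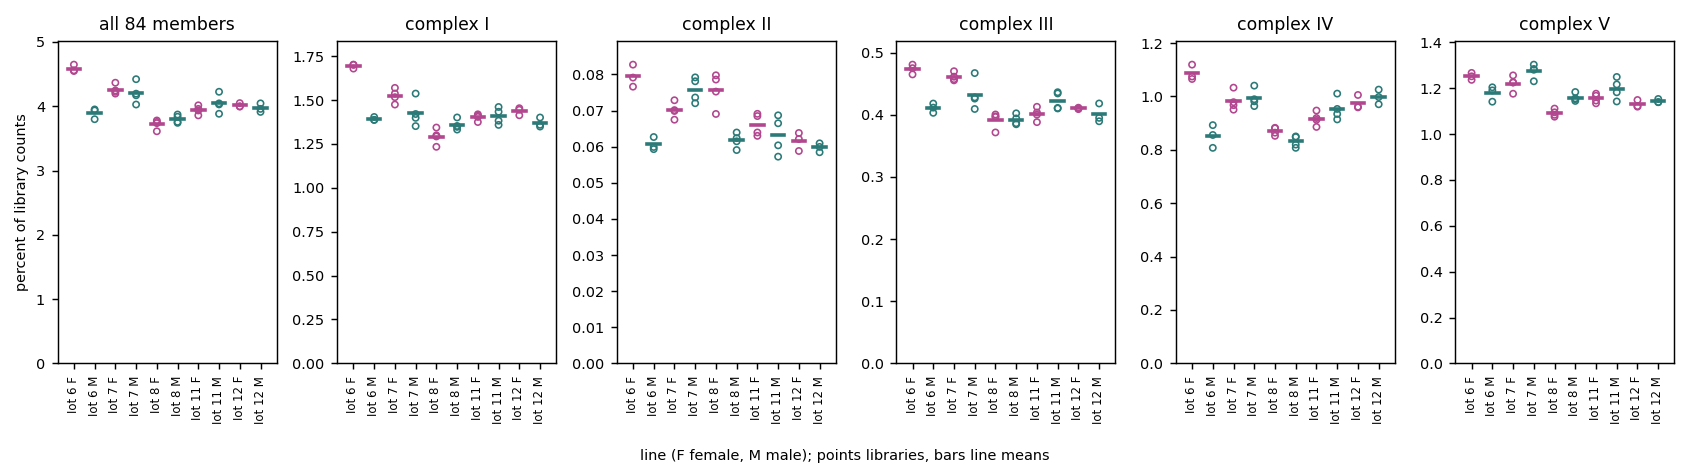
Percent of library counts on all 84 members and on the members of each complex, by line. Open circles are libraries, bars are line means, and female (F) and male (M) lines of a lot stand side by side; the lot 6 female line is the highest for all members and for complexes I to IV, and the lot 7 male line is the highest for complex V.

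The difference between the lot 6 lines in the share of counts was not seen after scaling. In the female line the members took 4.59% of counts against 3.89% in the lot 6 male line, with no overlap between the 3 libraries of each. Ribosomal protein genes (83 genes) moved the other way, at 18.5 ± 1.16% of female and 25.7 ± 2.15% of male counts (SD, n = 3 each). After TMM scaling, which sets libraries to a common level by the bulk of their genes, the summed members were 42996 ± 2001 CPM (female line) and 42708 ± 3129 CPM (male line), and their log2 difference was 0.01 against 0.24 by library totals. The lot 6 female line still had the highest sum of the 10 lines, whose lowest was 37249 CPM in the lot 8 female line. All CPM values and fold changes from here on are TMM-scaled unless another scaling is named. The lot 6 female line also had the highest summed pericyte and smooth muscle markers of all lines, at 18561 CPM against a lowest of 1849 CPM in the lot 7 male line. Only 4 of these 8 markers exceeded 1 CPM on average, and the median of the list was 12.5 CPM. A high sum therefore rests on few genes and need not hold for the other markers. The same line had the lowest summed astrocyte markers, at 169.6 CPM. That sum rests mostly on Gja1 (75.7 CPM there) and Nes (51.6 CPM), while Slc1a3 (8.95 CPM), Glul (16.7 CPM), Aldoc (4.28 CPM) and Fabp7 (3.48 CPM) were highest in that line. The part of these shifts in the member differences was not tested. In bulk RNA, fewer cells of a type and less RNA per cell cannot be told apart.

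Members of one complex differed widely in CPM, also where their proteins are built in at fixed proportions. Because BRB-seq counts transcript ends, a CPM value does not scale with transcript length, and levels of different genes are compared on that scale. How fully the reads of each gene were counted is not known. Differences in CPM between genes therefore need not be differences in transcript number. Of the 84 members 79 passed the expression filter (36 of 37 in complex I, 4 of 4 in II, 8 of 8 in III, 14 of 18 in IV and 17 of 17 in V).

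In complex I the accessory subunits Ndufa4, at 946 ± 69.3 CPM (SD over 10 lines), and Ndufb9, at 925 ± 136 CPM, were the highest. Ndufs1, which carries iron-sulfur clusters and is the largest core subunit, was the lowest of those that passed, at 45.2 ± 4.36 CPM. The 7 nuclear core subunits, which hold the flavin and the iron-sulfur clusters of the electron path, spread from this value to 597 ± 115 CPM for Ndufs7. The 4 subunits of complex II, which is also the succinate dehydrogenase of the citric acid cycle, were modest in level. The iron-sulfur subunit Sdhb averaged 314 ± 34.6 CPM, the membrane anchor Sdhd 159 ± 23.4 CPM, the flavoprotein Sdha 140.3 ± 13.4 CPM and the second anchor Sdhc 59.98 ± 10.02 CPM. Sdhd and Sdha are neighbours in that order whose line ranges overlapped, at 124 to 195 and 120 to 158 CPM.

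In complex III the small subunits Uqcrq, at 1022 ± 82.1 CPM, and Uqcr11, at 753 ± 123 CPM, led, and the core protein Uqcrc2 was lowest, at 126 ± 11.0 CPM. The Rieske iron-sulfur protein gene Uqcrfs1 averaged 179 ± 18.7 CPM. In complex IV Cox4i1, the widely used form of subunit 4, had the highest level of any member, at 2322 ± 324 CPM and 5.73% of all member counts. Cox6b1 followed at 1104 ± 103 CPM and Cox8a at 1060 ± 129 CPM. In complex V the c-ring gene Atp5g1 averaged 1420 ± 163 CPM, the central stalk subunit Atp5d 1330 ± 193 CPM, and the catalytic subunit Atp5b 1195 ± 196 CPM. The other c-ring genes, whose mature proteins are identical, were lower, with Atp5g3 at 578 ± 54.6 and Atp5g2 at 118 ± 23.9 CPM. Atp5l was lowest among the core subunits, at 82.3 CPM, but 44.2% of the joint counts of Atp5l and its near-identical copies lay on the copies, so its level is uncertain. The same share was 17.3% for Ndufs5, 16.8% for Atp5g2, 7.41% for Ndufb11, 5.90% for Cox7c, 5.25% for Atp5h and 5.24% for Atp5o. For the other 77 members it was at most 5%.

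**Figure D2:**
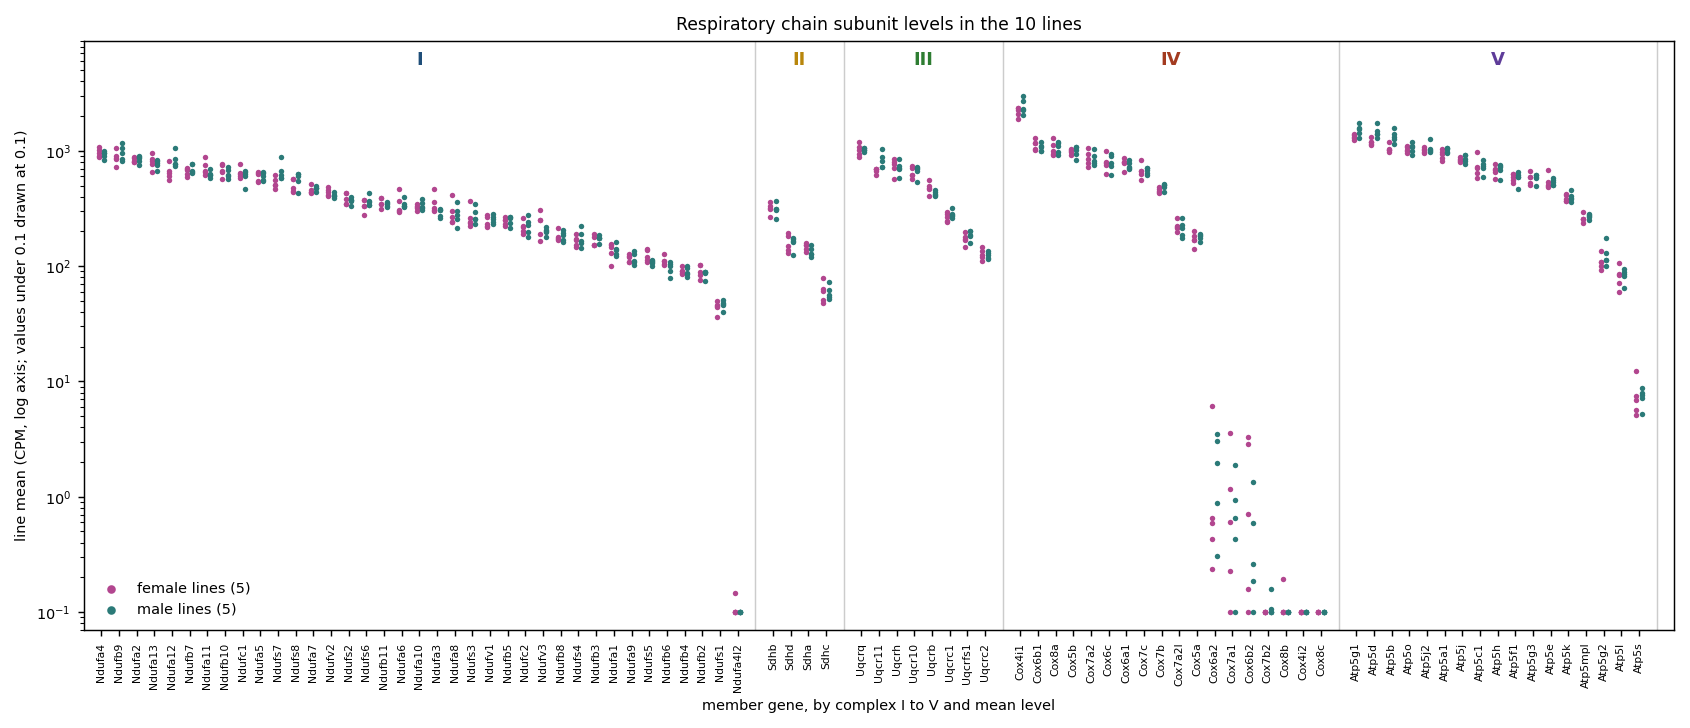
Mean level of each of the 84 members in the 5 female and 5 male lines, in CPM on a log axis, by complex and in order of mean level. Points are line means, and values under 0.1 CPM are drawn at 0.1; most members lie between 45.2 and 2322 CPM with narrow spread, and the tissue forms of complex IV sit near or below the floor.

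Line means of the abundant members stayed close together. Over the 75 members with a mean of at least 10 CPM, the highest line mean divided by the lowest had a median of 1.40 and reached at most 1.94, for Ndufa8. It exceeded 2 for 0 of these 75 members, for 35.4% of the 6280 other genes at that level, and for 23.6% of the 1507 other genes within the members' 5th to 95th percentile of level, whose median was 1.64. Atp5s, below that limit at 7.43 CPM, had a ratio of 2.41. Ndufa8, an accessory subunit of complex I, was lowest in lot 12 male libraries, at 212 to 217 CPM, and highest in lot 6 female libraries, with a mean of 417 ± 17.1 CPM (SD, n = 3). Atp5g2 ranged 1.90-fold, Ndufs7 1.87-fold, Sdhc 1.66-fold, Uqcr11 1.67-fold and Cox6c 1.60-fold. The narrowest were Ndufa7 at 1.18-fold, Ndufa2 at 1.19-fold and Cox7b at 1.21-fold. The lot 6 female line held the highest level of 31 of the 75 members (41.3%, against 18.98% of the other genes), and the lot 12 male line the lowest of 22 (29.3%, against 11.1%).

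The spread between lines was small in fold but larger than the spread between libraries for most members. With edgeR's quasi-likelihood F test over all genes and Benjamini-Hochberg adjustment, 69 of 79 tested members differed among the 10 lines at an adjusted p under 0.05, where 51.8% of all 12173 tested genes did. They were 30 of 36 in complex I, 4 of 4 in II, 8 of 8 in III, 13 of 14 in IV and 14 of 17 in V. The shares over all genes, here and below, are not matched for level. Of the tested members 75 averaged at least 10 CPM, beside 6280 of the other genes. Small differences pass more readily at high counts, so a higher share is not by itself a trait of the members. The 10 members that did not pass were Ndufa2, Ndufa7, Ndufa10, Ndufb4, Ndufb11, Ndufs1, Cox7b, Atp5j, Atp5mpl and Atp5s, with edgeR adjusted p from 0.0507 to 0.343. Without the replicate 4 libraries of lots 7, 8 and 11 the count was 60 (48.2% of all genes).

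The complex IV forms of striated muscle and testis were low, with line means of at most 6.11 CPM for Cox6a2. Cox6a2, the heart and skeletal muscle form of subunit 6a, averaged 1.77 CPM, where its partner Cox6a1 averaged 766 ± 67.2 CPM. Cox7a1, a muscle form, averaged 0.950 CPM against 866 ± 116 CPM for Cox7a2, and Cox6b2, a testis form, 0.944 CPM against 1104 CPM for Cox6b1. These low forms were still unevenly spread. Cox6a2 had 39, 50 and 30 counts in the 3 lot 12 female libraries, and 0 to 33 counts in each of the other 33. Cox7a1 had 28, 12 and 28 counts in the lot 12 female libraries and 13, 8 and 10 in the lot 12 male libraries, against 0 to 14 elsewhere. The lot 12 female line was thus the highest for both muscle forms, and all 3 genes passed the test among lines, with edgeR adjusted p of 0.000359 for Cox6b2, 0.00105 for Cox6a2 and 0.00538 for Cox7a1.

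Cox6b2 went in opposite directions in 2 lots. It had 0 counts in all 4 lot 7 female libraries and 12, 2, 7 and 15 counts in the lot 7 male libraries (edgeR adjusted p = 0.011). By library totals it was at least 9.87-fold higher in the male line, against a floor of 3 counts over the female line. In lot 12 it had 12, 2 and 46 counts in the female and 0, 0 and 1 counts in the male libraries (edgeR adjusted p = 0.0362). The ratio by library totals was 58.1, with an exact 95% counting interval of 10.04 to 2334. That interval leaves out the spread between libraries, and 46 of the female counts lay in 1 library. With the replicate number as a block, which the lot 12 libraries support, the lot 12 call was lost (edgeR adjusted p = 0.0832). Its difference between lots passed (edgeR adjusted p = 0.00135). Among the markers of the tissues named, germ cell markers were at 0 for 4 of 5 genes and summed to 0 to 0.309 CPM between lines, and 1 of 10 striated muscle markers exceeded 1 CPM, with sums from 0.837 to 10.3 CPM. Cox4i2, the form of subunit 4 known from lung and low oxygen, and the testis form Cox8c had 0 counts in all 36 libraries, Cox8b and Ndufa4l2 had 4 counts each in all, and Cox7b2 had 7.

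**Figure D3:**
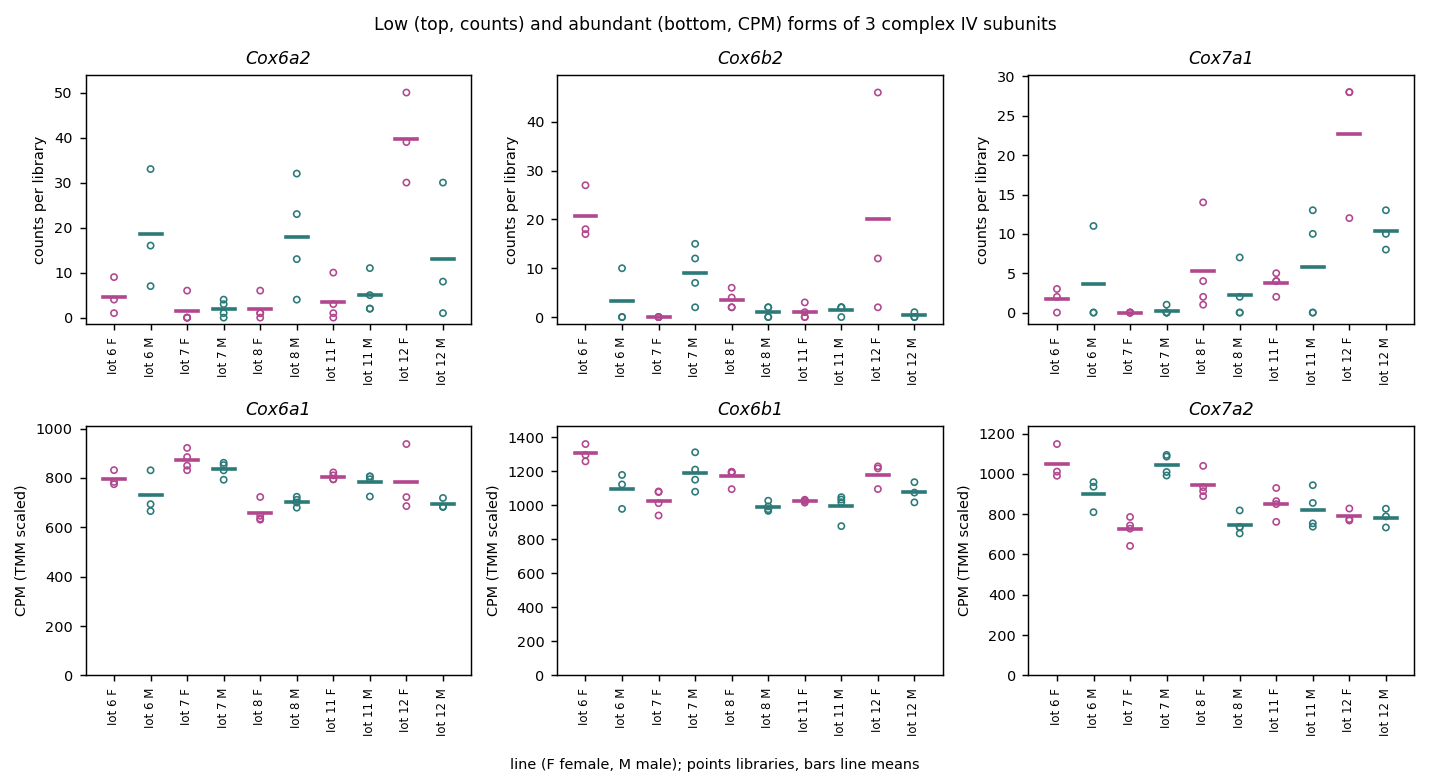
Counts per library of 3 low complex IV forms (top) and CPM of their abundant partners (bottom), by line. Open circles are libraries and bars are line means; Cox6a2 and Cox7a1 are highest in the lot 12 female line, Cox6b2 is at 0 in all lot 7 female libraries, and the partners stay between 659 and 1303 CPM in all line means.

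The number of members that differed between the female and male line of a lot ran from 4 in lot 11 to 29 in lot 6. In lot 6, 29 of 79 tested members passed, against 27.6% of all genes, with 19 higher in the female line (13.5% of all genes) and 10 lower (14% of all genes). The median log2 difference of the members, female minus male, was 0.11, and that of all genes 0.06. Complex I gave 11 higher and 4 lower, complex V 3 higher and 5 lower, complex IV 3 higher, complex III 2 higher and 1 lower, and complex II none, with Sdha at 0.26 ± 0.13 (log2, SE). Scaling by library totals alone moved the median of all genes to 0.29 and gave 50 higher and 7 lower members, so the split of directions in lot 6 depends on the scaling. Without lot 6 male replicate 3 the count was 18.

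In lot 6 the 5 lowest fold changes among members that passed were those of the 5 tested members on chromosome 10. A sixth member there, Ndufa4l2, did not pass the filter. They belong to 3 complexes: Ndufa12, an accessory subunit of complex I (chromosome 10, 94198720 to 94221443, GRCm38), Ndufs7, which carries an iron-sulfur cluster (80249121 to 80256794), Uqcr11 of complex III (80402997 to 80406830), and Atp5d (80138632 to 80145818) and Atp5b (128083273 to 128090391) of complex V. Ndufa12 measured 632, 590 and 582 CPM in the female libraries and 1134, 1034 and 977 CPM in the male libraries. Ndufs7 measured 612, 513 and 534 against 931, 896 and 804 CPM. Uqcr11 measured 678, 655 and 662 against 1081, 1091 and 920 CPM. For each of these 3 genes every female library was below every male library. Atp5d measured 1236, 950 and 1186 CPM in the female and 1944, 1720 and 1594 CPM in the male libraries. Atp5b measured 1093, 975 and 1001 against 1606, 1700 and 1397 CPM. Here too the groups did not overlap.

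These genes fell by 0.80 ± 0.10 (Ndufa12), 0.67 ± 0.12 (Ndufs7), 0.64 ± 0.10 (Atp5d), 0.63 ± 0.11 (Uqcr11) and 0.62 ± 0.10 (Atp5b) on the log2 scale (SE; edgeR adjusted p from 5.97e-08 to 6.40e-05). The other genes of chromosome 10 had the same shift: over 252 other genes of sufficient level (mean log2 CPM 4 or more) the median was -0.64, equal to the members' median of -0.64, and 63.5% of these genes were called lower. With scaling set within each chromosome by its genes that are not members, an alternative chosen after the data were seen, none of the 5 genes passed, with values from -0.22 for Ndufa12 (edgeR adjusted p = 0.0750) to -0.03 for Atp5b (edgeR adjusted p = 0.853). DNA copy number was not measured, and its part in this pattern was not tested. The RefSeq windows of the 5 genes shared none of the searched motifs: Uqcr11 held an ETS match, Ndufs7 a YY1 match and a TATAAA match, and the other 3 none.

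**Figure D4:**
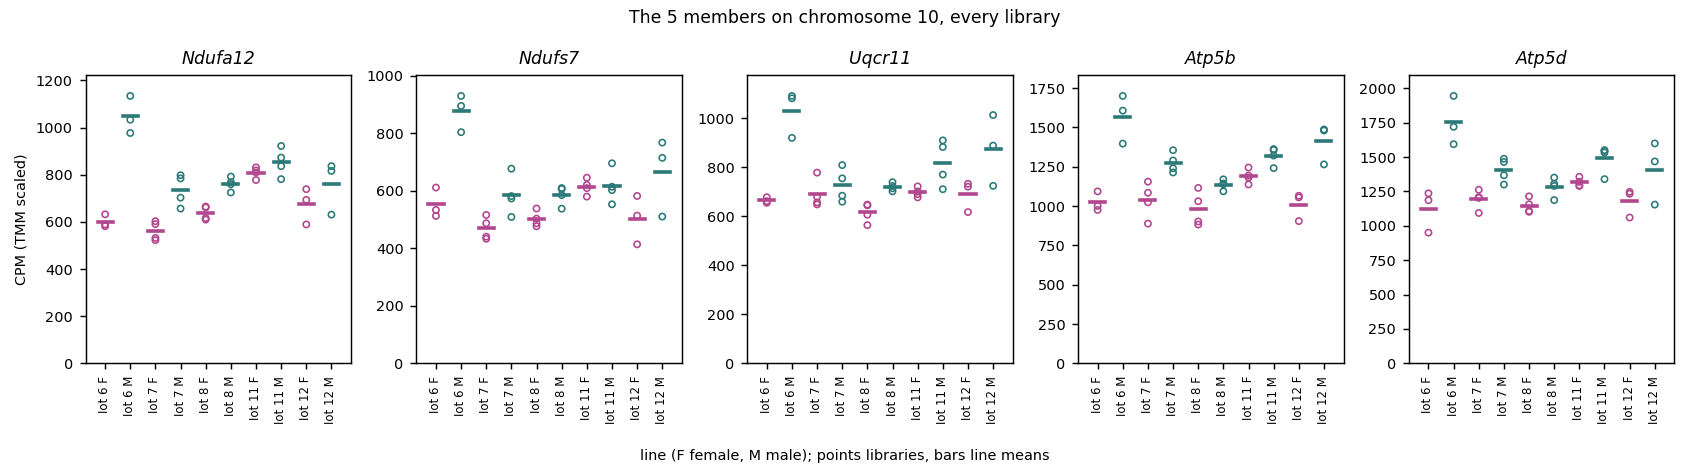
CPM of the 5 tested members on chromosome 10 in every library, by line, with female (F) and male (M) lines of a lot side by side. Open circles are libraries and bars are line means; in lot 6 the female libraries of all 5 genes lie below the male ones without overlap, and the female mean is below the male mean in each of the other lots too, by margins that mostly lie within the spread of the libraries.

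For the same 5 members the female line was below the male line in each of the 5 lots, 25 of 25 differences, from -0.80 to -0.01 on the log2 scale, and 10 of the 25 passed. Ndufa12 passed in lots 6, 7 and 8, Atp5b in lots 6, 7 and 12, Ndufs7 in lots 6 and 7, and Uqcr11 and Atp5d in lot 6. With the replicate block in lot 12, where the libraries pair, Ndufs7 and Uqcr11 passed in that lot too, for 12 of 25. The other genes of chromosome 10 had medians of -0.19, -0.11, -0.11 and -0.36 in lots 7, 8, 11 and 12, beside member medians of -0.30, -0.22, -0.15 and -0.34. Of those other genes 63.5, 19.8, 11.1, 6.35 and 17.9% were called lower in lots 6, 7, 8, 11 and 12. The 5 members share a chromosome whose other genes had medians below 0 in every lot, so the 25 differences are not independent. Of all 79 tested members, 6 were lower in the female line in every lot, these 5 and the X-linked Cox7b, and 1 was higher in every lot, Ndufs5. The other 72 had mixed signs, and Cox7b did not pass within any lot. How many of all genes keep 1 sign was not counted, so this is a description and not a result about the members.

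The other lot 6 differences were spread over chromosomes. On chromosome 2, 5 of 5 members were above 0 and 4 passed (Ndufa8, Ndufs3, Atp5c1 and Atp5e), with a member median of 0.33 beside 0.32 for the 436 other genes. On chromosome 11 Atp5g1 fell by 0.51 ± 0.11 and Atp5h by 0.27 ± 0.08 (log2, SE), where the other genes had a median of -0.41. Some members moved by more than their chromosome, whose other genes had medians of 0.13 (chromosome 7) and -0.02 (chromosome 17). Ndufa3, an accessory subunit on chromosome 7, measured 465, 456 and 476 CPM in the female and 319, 304 and 324 CPM in the male libraries, a rise of 0.56 ± 0.10 (edgeR adjusted p = 2.53e-05). Ndufa11, an accessory membrane-arm subunit on chromosome 17, measured 933, 864 and 875 against 623, 620 and 604 CPM, a rise of 0.53 ± 0.11 (edgeR adjusted p = 0.0003). Neither gene's groups overlapped, and both passed with scaling within chromosomes too, at 0.41 and 0.44, as did Ndufa13, at 0.43. Ndufc2, on chromosome 7, fell by 0.56 ± 0.11 and by 0.71 with that scaling.

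**Figure D5:**
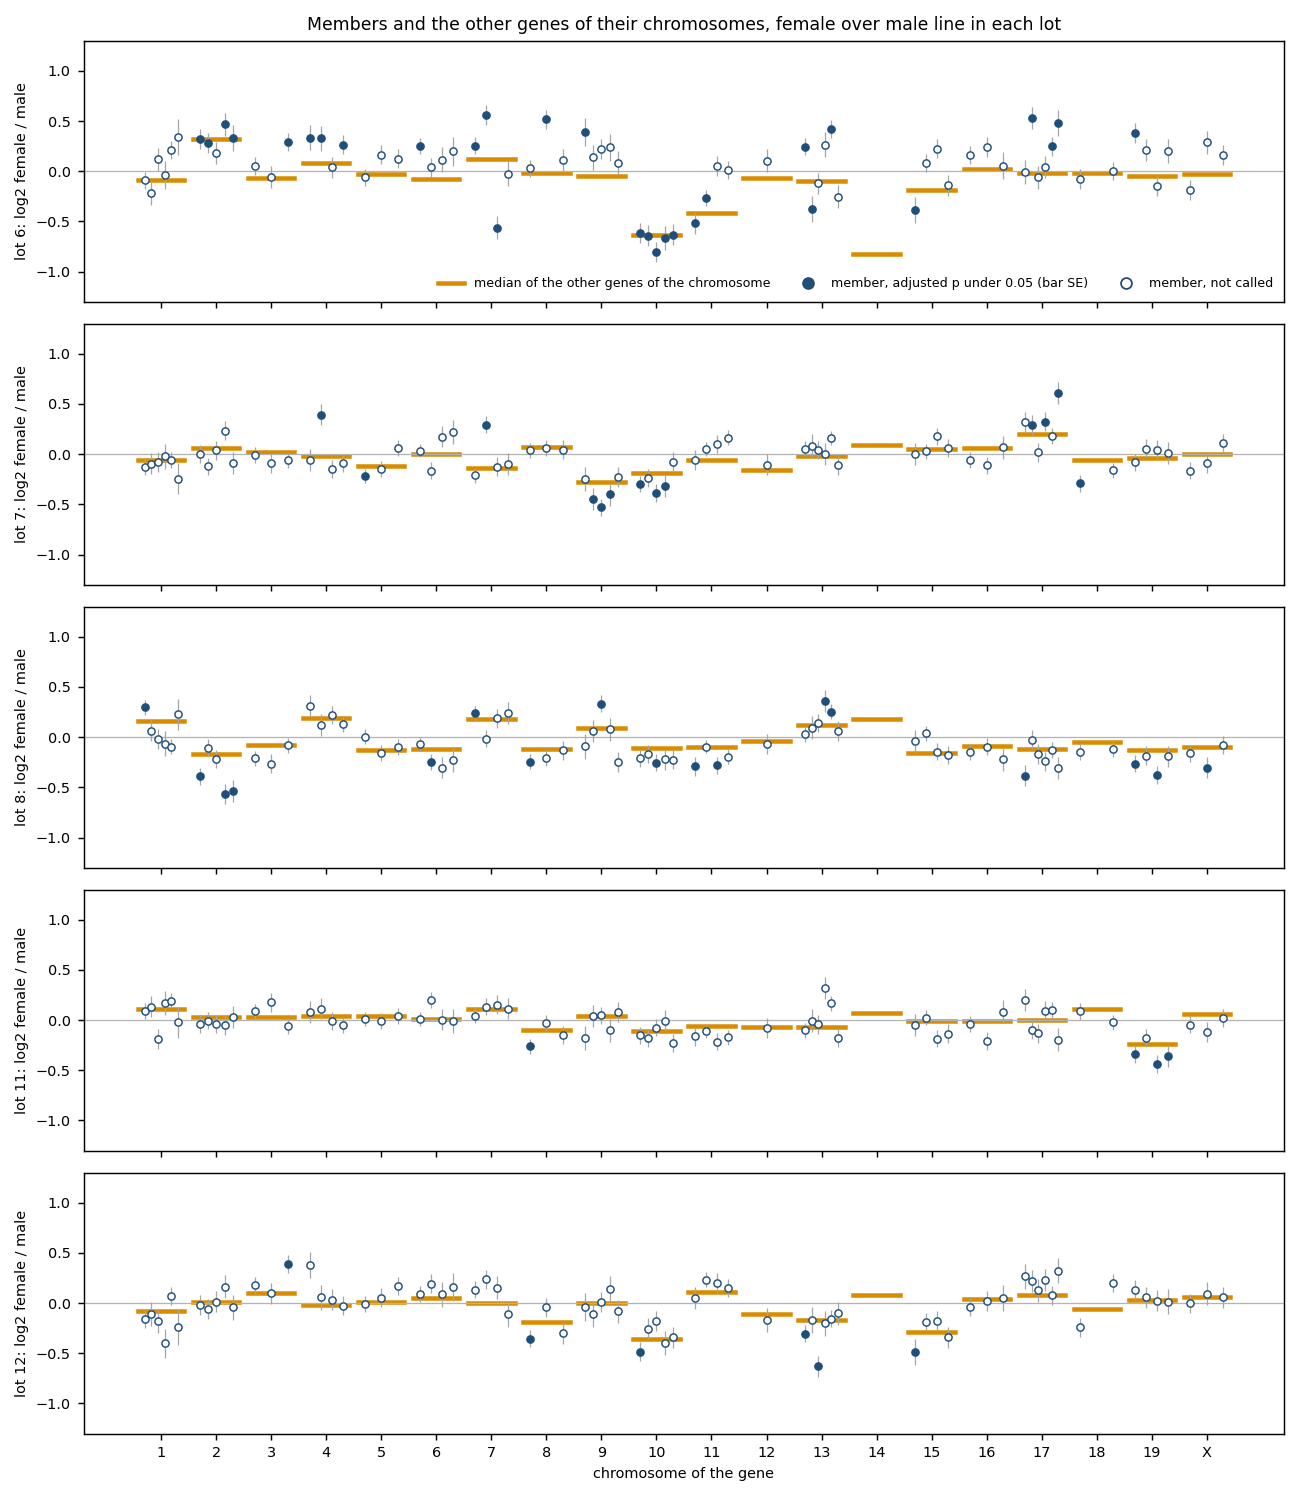
Log2 fold change, female over male line, of the 75 members with a mean of at least 10 CPM in each lot, by chromosome, with standard errors. Filled points passed at an adjusted p under 0.05, open points did not, and orange bars are medians of the other genes of the chromosome; members lie near the bars of chromosomes 10 and 2 in lot 6, 9 and 17 in lot 7, and 19 in lot 11.

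In lot 7, 14 of 79 members passed (10.8% of all genes), 5 higher in the female line (5.41% of all genes) and 9 lower (5.42%), and 6 passed without the replicate 4 libraries of lots 7, 8 and 11 (7.31% of all genes). The members had a median of -0.06 and all genes 0.01. Leaving out lot 7 female replicate 1 or 3, or male replicate 1 or 2, gave 9 each. The lower ones on chromosome 9 were Cox7a2, Cox5a, another nuclear subunit of complex IV, and the complex II anchor Sdhd. Cox7a2 measured 744, 728, 642 and 786 CPM in the female and 1094, 992, 1086 and 1009 CPM in the male libraries, a drop without overlap: it fell by 0.53 ± 0.09 (log2, SE; edgeR adjusted p = 2.80e-05). Cox5a fell by 0.45 ± 0.11 and Sdhd by 0.40 ± 0.11, where the other genes of chromosome 9 had a median of -0.28. On chromosome 17 all 6 members were above 0 and 3 passed, beside a median of 0.20 for the other genes. The highest was Ndufv3, a flavoprotein-arm accessory subunit, at 304, 308, 295 and 323 CPM against 187, 199.8, 239 and 179 CPM, a rise of 0.61 ± 0.11 (edgeR adjusted p = 0.000134). Cox7a2, at -0.27, and Ndufv3, at 0.37, still passed with scaling within chromosomes, and Cox5a and Sdhd did not. Ndufs5 on chromosome 4 rose by 0.39 ± 0.11 but not without lot 7 male replicate 1 (edgeR adjusted p = 0.0513), and 17.3% of its joint counts lay on a copy.

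In lot 8, 17 of 79 passed (11.4% of all genes), 5 higher (6.41%) and 12 lower (4.99%), with a member median of -0.12 beside 0.00 for all genes. The count was 8 without the replicate 4 libraries (8.9% of all genes), and 10, 7, 8 and 9 without female replicate 2, female replicate 3, male replicate 1 and male replicate 3. All 6 called members of complex I were lower. Ndufa8 measured 273, 243, 249.9 and 204 CPM in the female and 346, 360.4, 406 and 323 CPM in the male libraries, and fell by 0.57 ± 0.10 (log2, SE; edgeR adjusted p = 8.01e-05). The core subunit Ndufs3 measured 239, 259, 238 and 219 against 364, 367, 356 and 296 CPM, and fell by 0.53 ± 0.11 (edgeR adjusted p = 0.000903). Both lie on chromosome 2, whose other genes had a median of -0.17, and both passed with scaling within chromosomes, at -0.41 and -0.38. In lot 6 the same 2 genes were higher in the female line, by 0.47 ± 0.11 and 0.33 ± 0.13. Cox7a2 was reversed as well between lots 7 and 8: in lot 8 it measured 1040, 934, 914 and 889 CPM in the female against 704, 737, 735 and 819 CPM in the male libraries, a rise of 0.33 ± 0.09 (edgeR adjusted p = 0.00678). Sdha rose by 0.36 ± 0.11 (edgeR adjusted p = 0.0279), but not without female replicate 2 or 3 or male replicate 1, 2 or 3 of the lot (edgeR adjusted p from 0.0649 to 0.0844).

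In lot 11, 4 of 79 passed (4.33% of all genes), 0 higher in the female line (1.52% of all genes) and 4 lower (2.81%), and the member median was -0.03 beside -0.01 for all genes. The count was 1 without the replicate 4 libraries (3.32% of all genes), 1 without female replicate 4, and 2 without female replicate 1, male replicate 1 or male replicate 2. Ndufs8, Ndufv1 and Cox8a lie on chromosome 19, whose 191 other genes had a median of -0.24. Ndufs8, a core subunit that carries iron-sulfur clusters, measured 443, 468, 494 and 394 CPM in the female and 611, 587, 655 and 584 CPM in the male libraries, and fell by 0.44 ± 0.09 (log2, SE; edgeR adjusted p = 0.00197). Cox8a fell by 0.34 ± 0.08. The NADH-binding core subunit Ndufv1 fell by 0.36 ± 0.11, and this call (edgeR adjusted p = 0.0405) was lost without any of 13 single libraries in turn (edgeR adjusted p up to 0.166). Cox4i1, on chromosome 8, fell by 0.26 ± 0.07. With scaling within chromosomes none of these 4 passed.

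In lot 12, 7 of 79 passed (3.8% of all genes), 2 higher (1.74%) and 5 lower (2.06%), with a member median of 0.02 beside 0.01 for all genes. With the replicate block, which fits the pairing of these libraries, 10 passed (5.48% of all genes), 1 higher and 9 lower: Ndufs7, Uqcr11, Ndufb9 and Atp5a1 joined and Cox6b2 left. Counts without 1 library ran from 2, without male replicate 1, to 14, without male replicate 3, and were 3 and 4 without female replicate 3 and male replicate 2. Ndufs6, an accessory subunit at the matrix arm, measured 254, 299 and 276 CPM in the female and 439, 457 and 388 CPM in the male libraries, and fell by 0.63 ± 0.10 (log2, SE; edgeR adjusted p = 0.000126). It lies on chromosome 13, whose other genes had a median of -0.17, and passed with scaling within chromosomes too, at -0.49. Cox4i1 measured 2428, 2386 and 2213 against 3243, 3096 and 2654 CPM, and fell by 0.36 ± 0.08 (edgeR adjusted p = 0.00862). Its groups did not overlap in this lot. Cox4i1, the most abundant member, passed as lower in the female line in lots 8, 11 and 12. The 291 other genes of its chromosome, 8, had medians of -0.12, -0.10 and -0.19 in those lots. Ndufc1 rose by 0.39 ± 0.09, but not without male replicate 1 (edgeR adjusted p = 0.0516). Atp5g2 fell by 0.49 ± 0.13, but not without female replicate 2 or 3 or male replicate 1 or 2 (edgeR adjusted p from 0.0596 to 0.151). With the 6 lot 12 libraries fitted alone 0 members passed, 6 at an unadjusted p under 0.05, and DESeq2 over all libraries gave 11.

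Over the 75 members at 10 CPM or more, the SD of the log2 differences was smaller after the median of the other genes of the same chromosome had been subtracted: 0.22 against 0.30 (lot 6), 0.14 against 0.20 (lot 7), 0.13 against 0.20 (lot 8), 0.11 against 0.14 (lot 11) and 0.13 against 0.21 (lot 12). On chromosomes whose other genes had a median of at least 0.2 in size, members passed 22 times over the lots, a gene in different lots counted each time, and each time with the sign of the chromosome (lot 6 11 of 11, lot 7 6 of 6, lot 11 3 of 3, lot 12 2 of 2). Of the calls of other genes on those chromosomes 89.8% had that sign. The remaining 47 of the 69 calls over these members, with all 17 of lot 8, lay on chromosomes with smaller medians. With scaling within chromosomes the counts for lots 6, 7, 8, 11 and 12 were 15, 6, 5, 2 and 2, beside 24.7, 9.41, 9.49, 3.91 and 2.82% of all genes. Among the 10 lines 48 members passed, beside 46.2% of all genes.

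The sex difference varied between lots in size, and for some members in direction. A test of the difference between lots called 37 of 79 members, against 29.9% of all genes: 17 of 36 in complex I, 2 of 4 in II, 4 of 8 in III, 9 of 14 in IV and 5 of 17 in V. Of the 79, 46 passed within at least 1 lot (39.3% of all genes), 21 within at least 2 (13.5%), and 7 in both directions in different lots (4.98%). These 7 were Ndufa8, Ndufs3, Cox7a2, Cox7c, Cox8a, Atp5c1 and Cox6b2, the last of which did not pass in lot 12 with the replicate block. Members were called with 1 direction only in 3 lots for Cox4i1, Atp5b and Ndufa12, lower in the female line each time.

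With the lot as the independent unit, 10 line sums fitted by lot and sex, 0 of 79 members differed between the sexes and 0 of 12010 genes did (edgeR's quasi-likelihood test, 0% called; DESeq2 gave 0 members). At an unadjusted p under 0.05 there were 5 members, where 7% of all genes passed that limit. They were the 5 tested members on chromosome 10: Atp5b at -0.34 ± 0.10, Ndufa12 at -0.33 ± 0.12, Ndufs7 at -0.31 ± 0.11, Uqcr11 at -0.30 ± 0.11 and Atp5d at -0.29 ± 0.10 (log2 female minus male, SE), each with an edgeR adjusted p of 0.695. The median of the other genes of that chromosome was -0.28, and with scaling within chromosomes 0 members passed the unadjusted limit. Differences among the 5 lots, over both lines of each litter, were called for 0 members by edgeR and 1 by DESeq2, beside 0.025% of all genes by edgeR. At an unadjusted p under 0.05 there were 4, Cox7a1, Cox6c, Cox6a2 and Atp5g2, where 8.68% of all genes passed that limit.

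Genes that work with the members were counted from lists. Of the 13 mitochondrial-DNA genes 8 were tested and 1 differed among lines, mt-Nd3, at 2.91 CPM, and 0 passed within any lot. mt-Nd1 averaged 2692 CPM and mt-Cytb 1815 CPM, while mt-Co2, mt-Atp8 and mt-Nd4l were at 0 in all libraries. mt-Co3 and mt-Atp6 averaged 0.0077 and 0.011 CPM. Such values need not mean absent transcripts, because the handling of multi-mapping reads is not given, and their cause was not tested. Among assembly factors 8 of 18 for complex I, 0 of 4 for II, 2 of 6 for III, 9 of 20 for IV and 2 of 3 for V differed among lines, as did 7 of 11 genes of electron carriers, 15 of 17 of the citric acid cycle and 4 of 15 regulators of mitochondrial biogenesis, where 51.8% of all genes did. In lot 6 the citrate synthase gene Cs fell by 0.90 ± 0.09 (190 against 356 CPM) and Tfam, the packaging and transcription factor of mitochondrial DNA, by 0.97 ± 0.19 (30.2 against 59.1 CPM; log2, SE). Both lie on chromosome 10, like the 5 lowest members. Cytochrome c, Cycs, fell by 0.41 ± 0.11, and of the complex IV assembly factors Surf1 and Cox14 rose by 0.72 ± 0.19 and 0.48 ± 0.10 while Taco1 and Lrpprc fell by 1.28 ± 0.41 and 0.91 ± 0.31. The coactivator Ppargc1a averaged 0.328 CPM, below the floor, and Nrf1 35.7 CPM.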

How the data were processed

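The authors deposited unnormalized counts, 1 column for each of 36 libraries and 1 line for each Ensembl gene, per the labels. Tools listed in the submitters' processing notes are Subread 2.0.2, STAR 2.7.6a and cutadapt 2.10, with the build GRCm38. Strand, multi-mapping reads and the collapsing of molecular identifiers are not given in the sources used here, so floors and intervals hold for counting error alone, and reads of a gene and its antisense partner cannot be told apart (15 members overlap another gene within the last 300 bases, 11 of them on the opposite strand). Identifiers were matched to GENCODE M21 for symbols and biotypes, and 849 genes without a match held 0.0295% of counts. Copies were transcripts of other genes that matched at least 100 of a member's last 300 bases at 95% identity or more (blastn 2.17.0), and 21 members had one.

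Groups follow the lot and sex in the labels. All libraries were fitted with edgeR 4.0.16 (R 4.3.3, limma 3.58.1) after filterByExpr and TMM scaling, by quasi-likelihood tests with 1 coefficient per line, and Benjamini-Hochberg adjustment ran over all genes tested. Sex and lot were tested on 10 line sums. Alternatives were other scalings, filters, DESeq2 1.42.0, a replicate block, fits of 1 lot, and omission of single libraries or lots, and, added after seeing the data, scaling within chromosomes and omission of the replicate 4 libraries. Genes entered chromosome medians from a mean log2 CPM of 4 upward. The methods were tested on simulated data, and plots used matplotlib 3.10.9 with numpy 2.4.6 and pandas 2.3.3 under Python 3.11.15.

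Same-numbered female and male libraries deviated together in lot 12 (correlations 0.292 to 0.469 over 3 pairs), which counts as pairing. In lots 6, 7, 8 and 11 the values ran from -0.121 to 0.264 and did not exceed 0.1 in every pair. Weaker pairing is still seen in lots 7 and 11, at 0.0349 to 0.220 and 0.0636 to 0.190. Pairs of unlike number there reached at most 0.0468 and 0.0637. Replicate 4 gave the highest same-numbered value in lots 7, 8 and 11 (0.220, 0.264 and 0.190). The main counts of these lots leave this pairing out, and counts with the replicate block are given below.

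Members, gene lists and the rule for named genes were chosen with earlier results of these data known. The rule took, per complex, the 2 highest and 1 lowest member that passed the filter and the 2 of widest range over lines, the 2 highest and 2 lowest fold changes that passed within each lot (for both, from a mean log2 CPM of 3), the 3 of smallest p across lots, all of complex II and all tissue forms. Other genes named were chosen after their values were seen.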

Additional observations from a re-analysis of the deposited data

Results flagged for a closer look

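In 8 of 132 groups of 4 or 5 values the highest or lowest value stood apart from the rest by Dixon's ratio at the 95% level. Chance does this in about 1 in 20 groups. Libraries within the lines of lots 6 and 12 were not tested in this way. Among the 5 female lines, Atp5b was 1189 CPM in lot 11 against 983 to 1038 CPM in the others. Ndufs3 was 368 CPM in lot 6 against 224 to 263 CPM, and Cox6a2 was 6.11 CPM in lot 12 against 0.234 to 0.651 CPM. Among the 5 male lines, Ndufs7 was 877 CPM in lot 6 against 585 to 665 CPM. Ndufs6 was 428 CPM in lot 12 against 339 to 364 CPM, and Sdhd was 124 CPM in lot 12 against 161 to 174 CPM. Complex II took 0.0757% of counts in the lot 7 male line and 0.0598 to 0.0632% in the other male lines. Within the lot 8 female line, complex III took 0.371% in replicate 4 and 0.396 to 0.400% in the other libraries.

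Of 42 named members tested, 25 had a sex difference that differed between lots, where 29.9% of all genes did. Many were named for a high or low fold change within 1 lot, so this count is a description (edgeR quasi-likelihood test, Benjamini-Hochberg adjusted p given for each, with the lowest and highest log2 difference, female minus male). The sign was opposite at the ends for Cox7a2 (6.50e-06, -0.53 in lot 7 to 0.33 in lot 8), Ndufa8 (7.17e-06, -0.57 in lot 8 to 0.47 in lot 6) and Ndufv3 (1.76e-05, -0.31 in lot 8 to 0.61 in lot 7). It was also opposite for Cox8a (0.000147, -0.34 to 0.38), Ndufs6 (0.000402, -0.63 to 0.14), Ndufc1 (0.00124, -0.08 to 0.39), Ndufs3 (0.00187, -0.53 to 0.33), Cox7a2l (0.00250, -0.38 to 0.32) and Cox6b1 (0.00414, -0.21 to 0.26). Cox6b2 (0.00135) was at 0 counts in the lot 7 female line and at 1 count in the lot 12 male line. Spans that crossed 0 were also those of Ndufa11 (0.00475, -0.09 to 0.53), Ndufs8 (0.00743, -0.44 to 0.05), Ndufa3 (0.00805, -0.02 to 0.56), Cox4i1 (0.00912, -0.36 to 0.04) and Uqcrq (0.0145, -0.20 to 0.16). The same held for Cox5a (0.0223, -0.45 to 0.14), Sdhd (0.0224, -0.40 to 0.24), Atp5g1 (0.0291, -0.51 to 0.05), Sdha (0.0302, -0.20 to 0.36) and Ndufv1 (0.0434, -0.36 to 0.20). The 5 tested members on chromosome 10 stayed below 0 and differed in size: Ndufa12 (0.000490, -0.80 to -0.08), Atp5b (0.0189, -0.62 to -0.15), Ndufs7 (0.0209, -0.67 to -0.01), Uqcr11 (0.0251, -0.63 to -0.07) and Atp5d (0.0337, -0.64 to -0.16).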

How the results depend on the processing

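Counts of members that passed kept within 1.5 times under 372 of 412 alternatives, summed levels moved by less than the spread between libraries under 294 of 306, and named genes kept direction and side of the threshold under 866 of 915, with 43 weaker, 6 stronger and 0 reversed. For each count and named gene 36 of the alternatives left out 1 library, mostly of another lot. These tallies therefore say little about how stable a single lot is. In each of lots 7, 8, 11 and 12 the count moved under 4 omissions, each of a library of that lot. The counts of 0 for sex and among lots stayed at 0 under all 36. Where a count or level moved, the cause was not tested. Scaling by library totals gave 57 members in lot 6 and 57 for the difference between lots. Without the filter 15, 9, 9 and 2 passed in lots 6, 7, 8 and 11. Scaling within chromosomes gave 15, 6, 5, 2 and 2 in lots 6, 7, 8, 11 and 12, and 19 for the difference between lots. Omitting the replicate 4 libraries gave 6, 8 and 1 in lots 7, 8 and 11. DESeq2 gave 11 in lot 12 and 1 among lots, and lot 12 fitted alone gave 0. Taking all 36 libraries as replicates, which share lines, gave 13 for sex and 40 among lots, and 11 and 32 with the replicate block. The replicate block gave 28 in lot 8, where the numbers do not meet the pairing rule, and 32, 18, 5 and 10 in lots 6, 7, 11 and 12. Without 1 library, counts ran from 18 to 29 (lot 6), 9 to 16 (lot 7), 7 to 19 (lot 8), 1 to 4 (lot 11) and 2 to 14 (lot 12). These counts only show how far a setting moved the number. Where no share of all genes is given for a setting, its count does not set the members apart from other genes.

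Summed levels (log2, female minus male) by library totals in lot 6 were 0.24 for all members, 0.28 for complex I, 0.39 for II, 0.20 for III, 0.35 for IV and 0.0869 for V, where TMM gave 0.01, 0.06, 0.16, -0.02, 0.12 and -0.14. In lot 8 they were -0.0311 for all members, 0.0657 for complex IV and -0.0866 for V, where TMM gave -0.11, -0.02 and -0.17. The median over members was 0.0508 for complex V in lot 6, -0.012 for complex IV in lot 11 and 0.0702 for complex IV in lot 12, where sums gave -0.14, -0.09 and -0.10. Directions of complexes III and V in lot 6 and of complex IV in lots 8 and 12 therefore depend on the summary or scaling. So do those of all members and complex III in lots 7 and 12, complex II in lots 11 and 12, and complex I in lot 12.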
